A study of Homo sapiens with 9 samples.

Results

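Glycolysis breaks glucose down to pyruvate in the cytosol, and cells grown without much oxygen rely on it for ATP. The 10 genes described here reach from glucose uptake to lactate, though not through every step. They are the glucose transporter SLC2A1, the enzymes HK2, PFKP, ALDOC, TPI1, PGK1, PGAM1 and ENO1, the lactate dehydrogenase gene LDHA, and PDK1. The PDK1 kinase inactivates pyruvate dehydrogenase. They were chosen by symbol with earlier results of these data known, so counts and medians set beside those of all genes are no test. Each member was represented by the brightest transcript cluster annotated with its symbol, out of 18418 genes measured. Of these, 9 had a cluster annotated to them alone, with TPI1 covered by 2 such clusters. PGAM1 did not: its 5 clusters were all annotated to PGAM1 and its near-identical copy PGAM4, with means over the arrays from 11.9 to 12.1, so that signal is given as PGAM1/PGAM4.

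The series profiled NCCIT, a human embryonal carcinoma line that resembles pluripotent cells, with 9 arrays of 1 color, each of a different condition. Undifferentiated cells gave 1 array, and embryoid bodies, which are floating aggregates that begin to differentiate, gave 8. The embryoid bodies were sampled at day 7 and day 21, with no addition, with 50 mM ethanol, with an additive abbreviated FA, or with ethanol plus FA, 1 array each. All cells shared the same line and serum-containing medium, and the ethanol medium was renewed daily per the labels, whose protocol describes 7 days of culture while the titles also give 21. What FA stands for, and its dose, is not stated in the labels. No condition was repeated, so a difference between 2 arrays has no test, and tested effects are averages over matched arrays whose p-values reflect the scatter among these arrays alone, possibly technical. In bulk RNA a lower level in each cell and fewer cells that express a gene cannot be told apart.

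The values are log2 expression values, on which a difference of 1 is a 2-fold change. The undifferentiated array carried the marks of an embryonal carcinoma line, with SOX2 at 12.2, LIN28A at 12.7 and DNMT3B at 12.2, and all 10 pluripotency markers with a cluster of their own exceeded the median of all values on at least 1 array. The mean level of those markers was 11.5 in undifferentiated cells, 11.3 to 11.4 at day 7 and 9.91 to 10.2 at day 21. In the same order 7 neural markers averaged 7.50, 7.49 to 7.59 and 8.85 to 8.89. Markers of mesoderm and heart, also 7, averaged 7.42, 7.47 to 7.54 and 8.19 to 8.27. Between the same arrays MEF2C went from 7.29 to 11.1, PDGFRA from 7.07 to 9.57 and MIXL1 from 7.93 to 8.34. TBXT, MESP1, HAND1 and ACTC1 were lower at day 21, so the list mean rests mainly on MEF2C and PDGFRA. The means of the endoderm, endothelium and blood, trophoblast, and fibroblast lists showed no such rise. The day 7 array of ethanol alone correlated least with the other arrays of its day, at a mean r of 0.990 across all clusters against 0.994 to 0.995, so the results it enters are also given without it where it moves them.

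Glucose enters through facilitative transporters such as the SLC2A1 product, is trapped by hexokinase, committed by phosphofructokinase, split by aldolase and balanced by triose-phosphate isomerase. Phosphoglycerate kinase and the steps after it return ATP, and lactate dehydrogenase regenerates the NAD that the pathway needs. Many of these genes are textbook targets of the hypoxia-inducible factors, which bind an ACGTG or GCGTG core in promoters and enhancers, and pluripotent cells are known for a high glycolytic rate.

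Promoter windows are shown for the 3 members with the most negative ethanol differences (PDK1, ALDOC, HK2), for LDHA and for SLC2A1. The LDHA window held 3 ACGTG stretches, as did the window of PGK1, which is not shown. SLC2A1 is a rising member whose window held no ACGTG. The windows run from 250 bases before to 50 bases after an annotated start, 5′ to 3′ on the gene's strand. They come from RefSeq on GRCh38.p14, which is not known to be the build of the array annotation. Where a gene had more than 1 window, the one with the most ACGTG stretches was chosen. PDK1 and LDHA each had 2 windows, of which only the one shown held ACGTG, and HK2 had 2 that both held it. Capitals mark ACGTG, read on either strand, so that the reverse complement CACGT and the palindrome CACGTG also appear in capitals, and an overlapping pair is 1 stretch. For PDK1 (chr2:172555840-172556139, plus strand), ALDOC (chr17:28576846-28577145, minus strand), HK2 (chr2:74833877-74834176, plus strand), LDHA (chr11:18394313-18394612, plus strand) and SLC2A1 (chr1:42958819-42959118, minus strand) the sequences read:
PDK1: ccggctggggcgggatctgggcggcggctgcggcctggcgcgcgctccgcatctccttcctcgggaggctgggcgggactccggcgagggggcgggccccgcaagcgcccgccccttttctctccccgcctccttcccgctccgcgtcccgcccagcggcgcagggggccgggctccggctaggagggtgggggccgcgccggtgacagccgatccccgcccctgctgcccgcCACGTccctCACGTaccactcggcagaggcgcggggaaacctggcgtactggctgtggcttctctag
ALDOC: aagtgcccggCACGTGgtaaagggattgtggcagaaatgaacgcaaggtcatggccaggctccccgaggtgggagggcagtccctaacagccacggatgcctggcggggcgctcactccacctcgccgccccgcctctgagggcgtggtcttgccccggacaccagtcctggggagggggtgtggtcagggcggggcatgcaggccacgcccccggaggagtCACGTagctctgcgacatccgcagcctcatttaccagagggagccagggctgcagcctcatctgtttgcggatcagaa
HK2: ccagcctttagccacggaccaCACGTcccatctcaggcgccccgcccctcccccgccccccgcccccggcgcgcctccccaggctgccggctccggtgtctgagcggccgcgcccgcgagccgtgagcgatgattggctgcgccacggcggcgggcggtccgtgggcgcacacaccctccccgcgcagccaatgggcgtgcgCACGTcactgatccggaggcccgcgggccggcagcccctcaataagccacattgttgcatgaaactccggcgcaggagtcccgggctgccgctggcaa
LDHA: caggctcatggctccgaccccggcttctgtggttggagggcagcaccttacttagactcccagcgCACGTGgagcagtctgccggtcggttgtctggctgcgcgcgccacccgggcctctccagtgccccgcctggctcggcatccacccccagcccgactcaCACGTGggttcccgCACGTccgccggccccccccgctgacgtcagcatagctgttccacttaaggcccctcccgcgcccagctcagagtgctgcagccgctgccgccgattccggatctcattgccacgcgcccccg
SLC2A1: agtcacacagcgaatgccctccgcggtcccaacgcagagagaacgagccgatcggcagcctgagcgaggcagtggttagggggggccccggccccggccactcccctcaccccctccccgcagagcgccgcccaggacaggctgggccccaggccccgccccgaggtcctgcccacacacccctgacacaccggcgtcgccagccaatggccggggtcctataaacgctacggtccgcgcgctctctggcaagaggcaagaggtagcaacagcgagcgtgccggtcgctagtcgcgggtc

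In PDK1 the 2 stretches began 17 and 8 bases before the start. In ALDOC they began 240 and 28 bases before it, in HK2 229 and 48, and in LDHA 185, 87 and 73. All 10 members matched the RefSeq promoter table by symbol, with 17 windows in all. ACGTG was in at least 1 window of 7 members (HK2, PFKP, ALDOC, TPI1, PGK1, LDHA and PDK1), beside 24.9% of all genes. It lay in 8 of the 17 windows, or 47.1%, beside 21.4% of the 35116 windows of all genes. The other core, GCGTG, was searched on both strands as well and is not in capitals. It lay in 10 of the 17 member windows (58.8%, beside 36.5% of all windows), among them the SLC2A1 window, 26 bases after the start, and the HK2 window, 55 bases before it. The ALDOC window held it 108 and 45 bases before the start and the LDHA window 39 bases after it, whereas the PDK1 window shown held none. One or the other core lay in a window of 9 members, all but PGAM1. That was 12 of the 17 member windows, beside 48.4% of all windows. A match describes letters in a 300-base window and says nothing of binding, and a window without one says only that these letters are not in it.

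**Figure D1:**
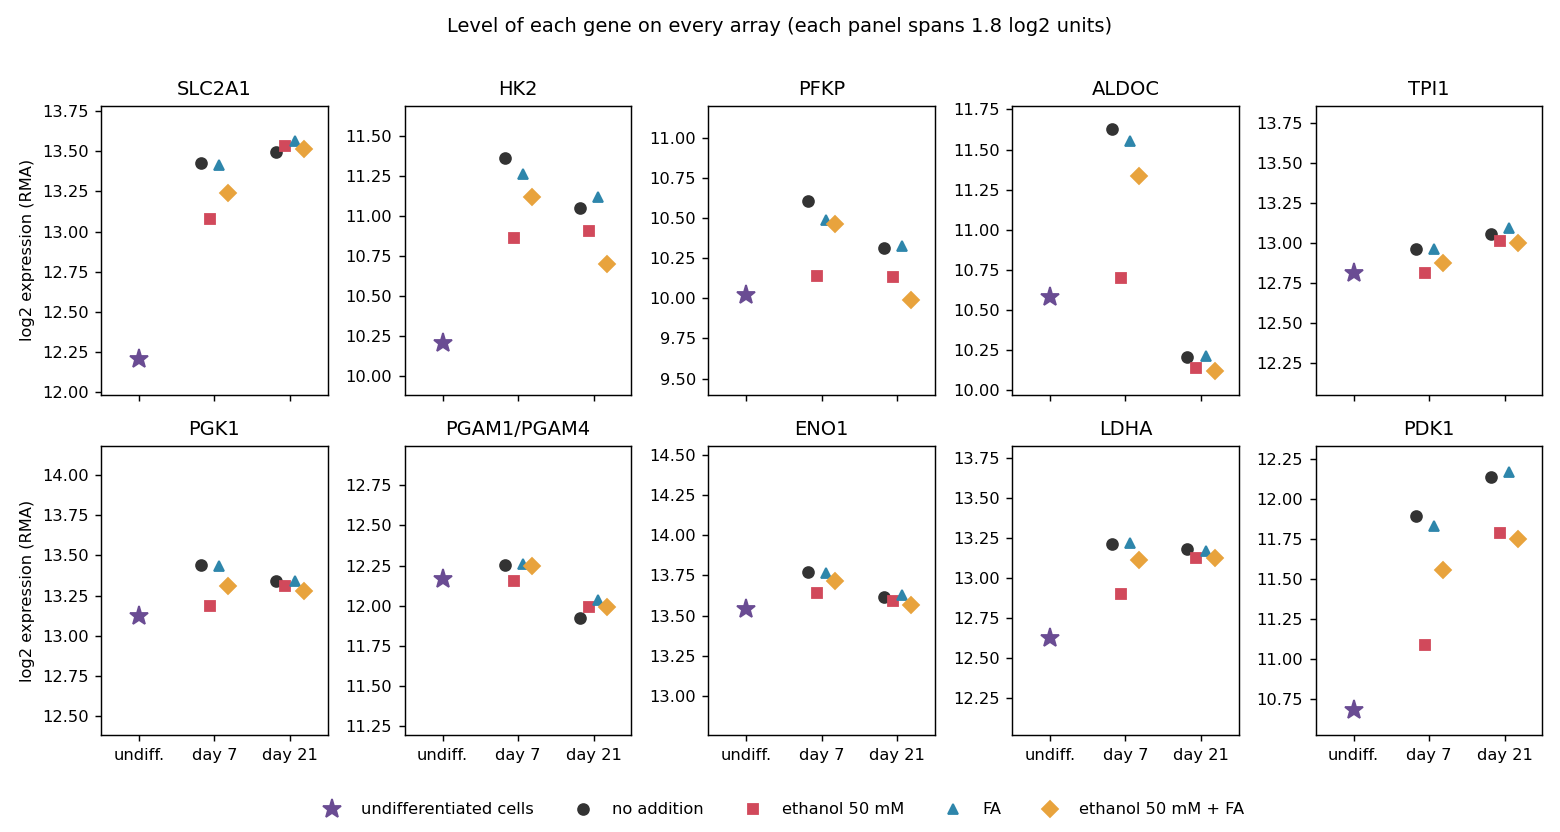
Level of each of the 10 genes on every array, in log2 units on the vertical axis, with undifferentiated cells, day 7 and day 21 along the horizontal axis and 1 symbol per array. Every panel spans the same number of log2 units. SLC2A1, HK2, LDHA and PDK1 start low in undifferentiated cells, ALDOC is high at day 7 except with ethanol, and the ethanol symbol sits lowest among the day 7 symbols in every panel.

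SLC2A1, HK2, LDHA and PDK1 were higher in embryoid bodies than in undifferentiated cells at both times. At day 7, 5 of the 10 genes rose and 0 fell: SLC2A1 by 1.13 ± 0.12 on the log2 scale (SE of the fit, a 2.18-fold change), HK2 by 1.09 ± 0.13, PDK1 by 1.09 ± 0.16, PFKP by 0.52 ± 0.14 and LDHA by 0.52 ± 0.11. At day 21, 5 rose and 0 fell, with PDK1 at 1.46 ± 0.16 (2.74-fold), SLC2A1 at 1.36 ± 0.12, HK2 at 0.88 ± 0.13, LDHA at 0.56 ± 0.11 and TPI1 at 0.27 ± 0.080. The test was limma's moderated fit of all 12255 genes that passed a filter on dim values, with a Benjamini-Hochberg adjusted p under 0.05 as threshold. All 10 members passed that filter. Of all genes tested 6.67% rose at day 7 and 16.6% at day 21, and the median gene stood at -0.050 and -0.062 beside member medians of 0.52 and 0.28. After subtraction of each array's median, genes that rose and fell at day 7 numbered 553 and 2498 in place of 818 and 1702. Both comparisons share the 1 undifferentiated array, and each uses the embryoid body level without additions that the additive fit estimates from all 8 embryoid body arrays.

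SLC2A1 codes for GLUT1, the transporter that supplies most cells with glucose. Its level was 12.2 in undifferentiated cells, 13.4 with no addition, 13.1 with ethanol, 13.4 with FA and 13.2 with both at day 7, and 13.5, 13.5, 13.6 and 13.5 in the same order at day 21. The undifferentiated array was the lowest and did not approach any embryoid body array. Limma's adjusted p was 0.00402 for day 7 and 0.000134 for day 21.

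HK2 codes for the inducible hexokinase that binds the mitochondrial surface and traps glucose in the cell. It measured 10.2 in undifferentiated cells, then 11.4, 10.9, 11.3 and 11.1 at day 7 and 11.1, 10.9, 11.1 and 10.7 at day 21, in the order no addition, ethanol, FA and both. Again every embryoid body array exceeded the undifferentiated one, and limma's adjusted p was 0.00475 and 0.00172 for the 2 days. HK1, the widely expressed hexokinase gene, did not share this: it fell to day 21 by 0.47 ± 0.11 (limma's adjusted p 0.00955).

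PFKP, the platelet-type phosphofructokinase gene of the committing step, spanned 9.99 to 10.6 over the 9 arrays. The undifferentiated array (10.0) lay inside the range of the embryoid bodies, and PFKP was 10.6 in the untreated day 7 array. The rise to day 7 had an adjusted p of 0.0329 in limma, whereas the day 21 difference of 0.29 ± 0.14 did not pass (adjusted p 0.134). When 1 array was left out, PFKP passed at day 7 in 3 of 8 fits, with adjusted p from 0.00504 to 0.149 in limma. It passed without either day 7 array that held ethanol and without the day 21 array of ethanol alone, and not without any of the other 5. With each array's median subtracted the day 7 value was 0.45 and did not pass (adjusted p 0.0612 in limma). At day 21 PFKP passed in limma without the day 7 array of ethanol alone (adjusted p 0.0424) or that of both additions (0.0227).

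ALDOC, the brain-type aldolase gene, was the member that fell most from day 7 to day 21 without additions. Among undifferentiated and untreated arrays HK2, PFKP, PGK1, PGAM1/PGAM4, ENO1 and LDHA were also highest at day 7. The ALDOC level was 10.6 in undifferentiated cells, 11.6 in untreated day 7 embryoid bodies, 11.6 with FA, 11.3 with both additions and 10.7 with ethanol. At day 21 the 4 arrays lay between 10.1 and 10.2, below the undifferentiated array. The fitted day 7 difference was 0.82 ± 0.25 and missed the threshold narrowly in limma (adjusted p 0.0506), and it passed in 3 of 8 fits that left out 1 array. Those values ran from 0.59 without the untreated day 7 array (limma's adjusted p 0.205) to 1.00 without the day 7 array of ethanol alone (0.000460), and the other fits that passed omitted the day 7 array of both additions (0.0440) or the day 21 array of ethanol alone (0.0479).

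TPI1, whose enzyme interconverts the triose phosphates, was nearly flat, from 12.8 in undifferentiated cells to 13.1 with FA at day 21. Its day 21 rise (adjusted p 0.0318 in limma) passed in 2 of 8 fits that left out 1 array, those without a day 7 array that held ethanol, and adjusted p reached 0.0830 in the others. It was also lost when each array's median was subtracted (0.24, adjusted p 0.0513 in limma). A second TPI1 cluster ran from 11.01 to 11.31. PGK1, the first ATP-yielding enzyme gene, ranged from 13.1 to 13.4, ENO1, the enolase gene, from 13.5 to 13.8, and PGAM1/PGAM4 from 11.9 to 12.3. Neither PGK1 (0.27 ± 0.095 at day 7) nor ENO1 (0.21 ± 0.081) nor PGAM1/PGAM4 (0.046 ± 0.085) passed at day 7 in limma, with adjusted p of 0.0819, 0.104 and 0.762. Without the day 7 array of ethanol alone PGK1 and ENO1 passed in limma (adjusted p 0.0174 and 0.0433). These genes have processed pseudogenes and near-copies that probes can share. The highest value of any cluster was 14.3, array signal is compressed near its top, and the part of that in these small ranges was not tested.

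LDHA codes for the lactate dehydrogenase subunit that favours lactate. It stood at 12.6 in undifferentiated cells and at 13.2, 12.9, 13.2 and 13.1 at day 7 and 13.2, 13.1, 13.2 and 13.1 at day 21, in the order used above. Limma's adjusted p was 0.0143 at day 7 and 0.00470 at day 21, and without the untreated day 7 array it was 0.0848 at day 7. LDHB, the gene of the other main subunit, ran from 13.1 to 13.3 over the same arrays.

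PDK1 codes for a kinase that inactivates pyruvate dehydrogenase. Its level was 10.7 in undifferentiated cells, then 11.9 with no addition, 11.1 with ethanol, 11.8 with FA and 11.6 with both at day 7, and 12.1, 11.8, 12.2 and 11.8 at day 21. PDK1 was thus the member with the highest step to day 21 and one of 2, with SLC2A1, that were at least 2-fold above undifferentiated cells in the untreated day 21 array. At day 7 there were 4 such members, SLC2A1, HK2, ALDOC and PDK1. Over all genes tested 1.23% reached 2-fold at day 7 and 4.94% at day 21.

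Across all 8 embryoid body arrays, 7 members (SLC2A1, HK2, TPI1, PGK1, ENO1, LDHA and PDK1) were higher on each than in undifferentiated cells, TPI1 by as little as 12.816 against 12.815, against 14.6% of all genes tested. SLC2A1, HK2, PDK1 and LDHA passed at day 21, and the first 3 of them also at day 7, in every one of the 8 fits that left out 1 embryoid body array. Without the untreated day 7 array 3 members rose to day 7, beside 1.36% of all genes, and without the day 7 array of ethanol alone 8 did, beside 12.5%. To day 21 the latter fit counted 7 members as higher and ALDOC as lower (adjusted p 0.0155 in limma), beside 20.7% of all genes higher.

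**Figure D2:**
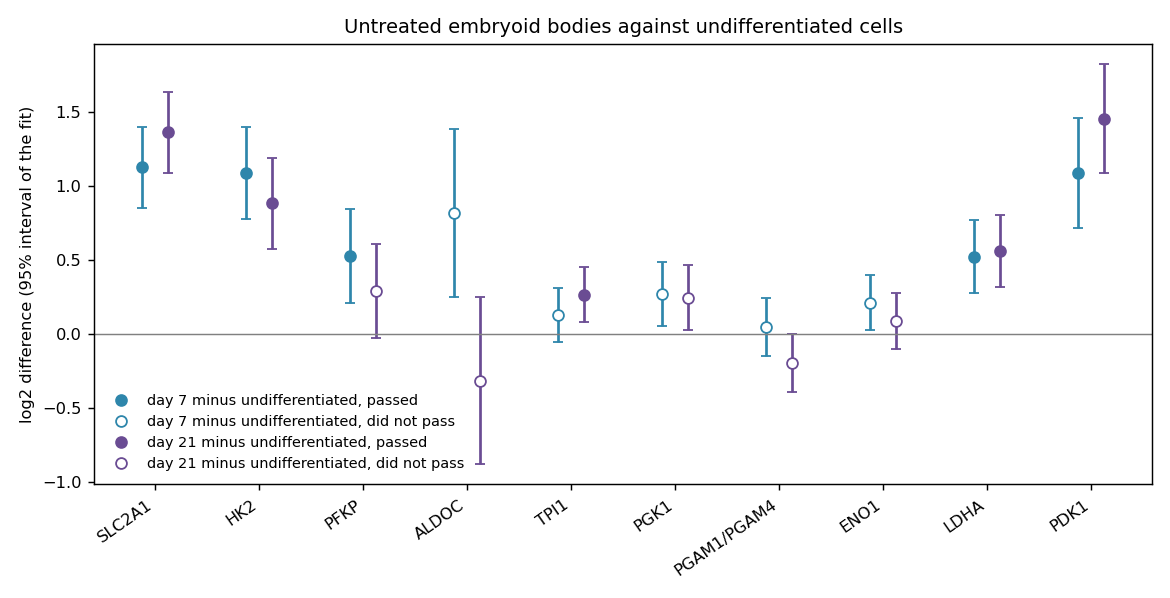
Fitted log2 difference of each gene between embryoid bodies with no addition and undifferentiated cells, at day 7 and at day 21, with the 95% interval of the fit as bars. Filled points passed the adjusted threshold. The 4 largest day 21 values belong to PDK1, SLC2A1, HK2 and LDHA, and ALDOC changes sign between the days.

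Between day 7 and day 21 the members moved in both directions. ALDOC fell by 1.13 ± 0.14, PGAM1/PGAM4 by 0.24 ± 0.049 and PFKP by 0.23 ± 0.079, while PDK1 rose by 0.37 ± 0.092, SLC2A1 by 0.24 ± 0.068 and TPI1 by 0.14 ± 0.046. Limma's adjusted p was 0.000363, 0.00427, 0.0409, 0.0117, 0.0213 and 0.0369 in that order. These 3 genes higher and 3 lower compare with 26.3% and 22.6% of all genes tested, shares close to those of the members. After that subtraction those genome-wide numbers were 3841 higher and 2107 lower in place of 3224 and 2772. PFKP at day 21 overlapped day 7, as did PDK1. All 4 day 21 arrays were below all 4 day 7 arrays for ALDOC, PGAM1/PGAM4 and ENO1 (21.4% of all genes), and above them for SLC2A1 and TPI1 (24.6%).

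HK2 (-0.21 ± 0.077, adjusted p 0.0572), ENO1 (-0.12 ± 0.047, adjusted p 0.0568), PGK1 (-0.026 ± 0.055) and LDHA (0.038 ± 0.062) did not pass for day in limma. ALDOC, PGAM1/PGAM4 and PDK1 passed in all 9 fits that left out 1 array, SLC2A1 in 6, PFKP in 3 and TPI1 in 2; omitting the undifferentiated array, which has a term of its own, alters none of these. Among the other 8 fits PFKP passed without either array of ethanol alone, and TPI1 without the day 7 array of both additions. Subtracting each array's median ended the PFKP call (-0.18, adjusted p 0.1198 in limma), and testing without the filter on dim values ended those of PFKP and TPI1 (0.0521 and 0.0527). Among the 5 arrays without ethanol SLC2A1 was 0.11 and TPI1 0.11 by day, and neither passed in limma (adjusted p 0.230 and 0.214). HK2 also passed without either array of ethanol alone (limma's adjusted p 0.00939 and 0.0350), and ENO1 without the one of day 7 (0.0275). SLC2A1 did not pass without the day 7 FA array (adjusted p 0.0525 in limma), the day 21 ethanol array (0.0788) or the day 21 array with both (0.0689). Over the same interval 9 of 10 pluripotency markers fell and 4 of 6 tested neural markers rose. Of 5 tested mesoderm and heart markers 3 rose and 1 fell. The part of these shifts in the member differences was not tested.

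With ethanol the average difference was below 0 for all 10 members, but none passed the test. The largest was in PDK1 (-0.46 ± 0.092, a 1.38-fold difference), followed by ALDOC (-0.33 ± 0.14), HK2 (-0.30 ± 0.077) and PFKP (-0.25 ± 0.079). SLC2A1 (-0.13 ± 0.068), LDHA (-0.13 ± 0.062), PGK1 (-0.12 ± 0.055), TPI1 (-0.093 ± 0.046), ENO1 (-0.068 ± 0.047) and PGAM1/PGAM4 (-0.024 ± 0.049) were smaller. Limma's adjusted p ran from 0.0746 for PDK1 to 0.838 for PGAM1/PGAM4. Of all genes tested 0.685% passed, 0.122% as lower. At an unadjusted p under 0.05 limma counted 4 members as lower (PDK1, HK2, PFKP and ALDOC), where 6.48% of all genes met that rule. An average below 0 was found in 41% of all genes, whose median was 0.022 beside -0.13 for the members.

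The direction held array by array in most cases. For 8 members the level was lower with ethanol in all 4 matched pairs, which was true of 11% of all genes tested, and the exceptions were SLC2A1 and PGAM1/PGAM4 in the day 21 pair without FA (0.035 and 0.067). At day 7 both ethanol arrays were below both arrays without ethanol for all 10 members, against 19.8% of all genes. At day 21 the groups were likewise separated for 8 members, against 14.5%, and overlapped for SLC2A1 and PGAM1/PGAM4. These pairs come from the same arrays as the fit and are no further test of it.

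For PDK1 the ethanol array minus its matched array was -0.80 (no FA) and -0.27 (FA) at day 7 and -0.34 (no FA) and -0.42 (FA) at day 21. HK2 gave -0.50, -0.14, -0.14 and -0.42 in the same order, and PFKP -0.47, -0.025, -0.18 and -0.33. For these 3 genes the day 21 pairs averaged -0.38, -0.28 and -0.26, beside day 7 averages of -0.54, -0.32 and -0.25.

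In every member except PFKP the average of the day 7 pairs was further from 0 than that of the day 21 pairs, a contrast that passed its test for none. For ALDOC the ethanol difference at day 7 was -0.93 without FA, a 1.90-fold difference between single arrays, and -0.21 with FA, against -0.074 and -0.094 at day 21. SLC2A1 gave -0.35 and -0.18 at day 7 and 0.035 and -0.049 at day 21. LDHA gave -0.31 and -0.10, then -0.054 and -0.046, and PGK1 gave -0.25 and -0.12, then -0.029 and -0.067. A test of the ethanol by day interaction did not separate the days for any member in limma: its value was 0.49 ± 0.24 for ALDOC and 0.26 ± 0.10 for SLC2A1, and adjusted p ran from 0.647 to 1.00 over the members, with 0.00816% of all genes past the threshold. At an unadjusted p under 0.05 this interaction counted SLC2A1 alone among the members and 917 of all genes. Without the day 7 array of ethanol alone it was 0.15 for ALDOC and 0.18 for SLC2A1, it changed sign for HK2 (-0.14) and PDK1 (-0.088), and again no member passed, while 329 of all genes did.

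**Figure D3:**
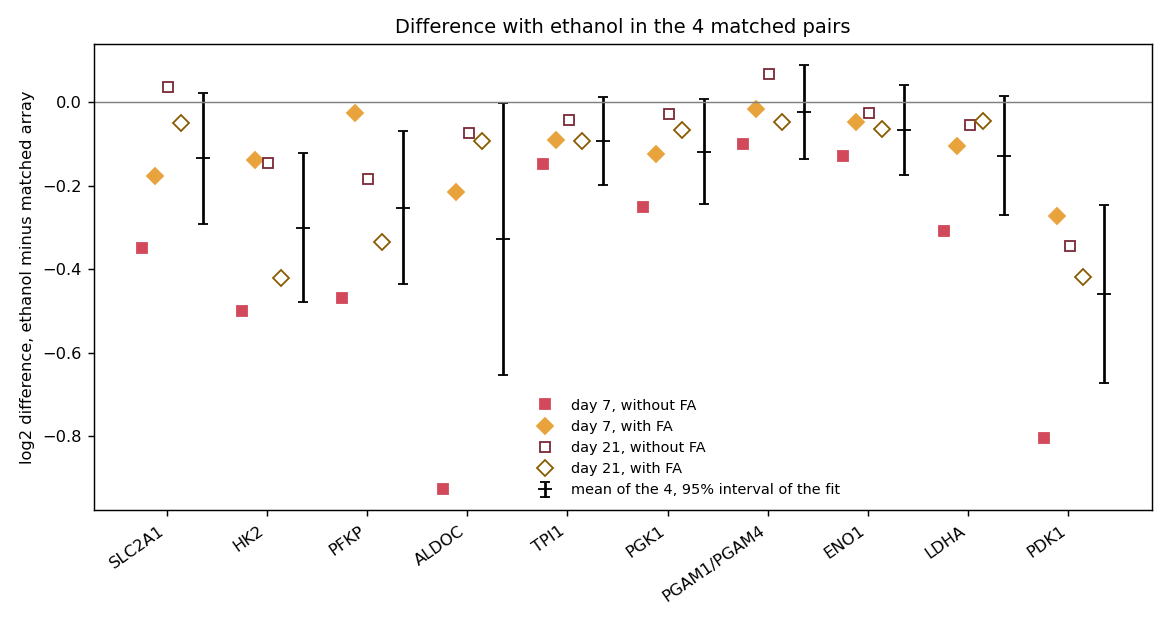
Log2 difference between each ethanol array and its matched array without ethanol, for the 10 genes, with 1 symbol per pair (filled for day 7, open for day 21) and the mean of the 4 pairs with the 95% interval of the fit in black. The lowest point of every gene is the day 7 pair without FA, and the most negative day 21 points belong to PDK1, HK2 and PFKP.

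The day 7 array of ethanol alone, the one that correlated least with its day, gave the most negative of the 4 differences in every member. Without it the average stayed below 0 for all 10 members, with a median of -0.076 in place of -0.13. PDK1 was then -0.35 ± 0.049 and passed (limma's adjusted p 0.0259), as it also did when the day 7 array of both additions was omitted (adjusted p 0.0467). PDK1 did not pass in the other 7 of 9 fits that left out 1 array, where limma's adjusted p reached 0.288 without the untreated day 7 array. ALDOC went from -0.33 to -0.14, HK2 from -0.30 to -0.23, PFKP to -0.18, SLC2A1 to -0.075, LDHA to -0.068, PGK1 to -0.076 and PGAM1/PGAM4 to -0.0061, and none of these passed. Pluripotency markers had a median ethanol difference of 0.12 with 0 of 10 past the threshold, and NCAM1 alone of 6 neural markers passed, as higher (0.47 ± 0.052, and 0.49 without that array). The part of cell make-up in the member differences was not tested.

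FA by itself left the members near their matched arrays, and no member passed for FA in limma (adjusted p 1.00 for each, 0% of all genes past the threshold, and 0 members and 121 genes at an unadjusted p under 0.05). The average FA effects lay between 0.0042 (HK2) and 0.14 (ALDOC). Against untreated embryoid bodies FA alone differed by -0.12 to 0.0082 at day 7 and by -0.011 to 0.11 at day 21. Against ethanol alone, ethanol with FA was higher for all 10 members at day 7, by 0.058 (TPI1) to 0.64 (ALDOC) with PDK1 at 0.47, and lower for all 10 at day 21, by -0.21 (HK2) to -0.0011 (PGAM1/PGAM4). Over all genes 43.5% were lower in that day 7 pair and 63.2% in the day 21 pair. The day 7 pair holds the array that correlated least, and without it the average FA effect was below 0 for 8 of 10 members, with a median of -0.011 in place of 0.036. The ethanol by FA interaction passed for no member (limma's adjusted p 0.994 to 0.997, 0% of all genes, and 100 genes at an unadjusted p under 0.05), with 0.35 ± 0.27 for ALDOC and 0.23 ± 0.18 for PDK1. Without the day 7 array of ethanol alone these were -0.034 and 0.0089, and the values of 9 members were below 0.

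Among 19 other glycolysis genes, 17 had a cluster of their own and 11 were bright enough to be tested. At day 7, 2 of the 11 rose and 0 fell, ENO2, the neuronal enolase gene, by 0.99 ± 0.16 and GPI, the gene of the isomerase that follows hexokinase, by 0.65 ± 0.16 (limma's adjusted p 0.00766 and 0.0257). At day 21 ENO2 (0.74 ± 0.16), GPI (0.55 ± 0.16) and the pyruvate kinase gene PKM (0.35 ± 0.10) rose and HK1 fell. For ethanol 0 of 11 passed and 7 were below 0, with GPI at -0.38 ± 0.092, ENO2 at -0.32 ± 0.092, the liver-type phosphofructokinase gene PFKL at -0.19 ± 0.073 and the muscle-type aldolase gene ALDOA at -0.17 ± 0.058. These 4 values were -0.28, -0.22, -0.12 and -0.15 without the day 7 array of ethanol alone. ENO2 itself ran from 10.8 in undifferentiated cells to 11.9 in untreated day 7 embryoid bodies and 11.3 in the matched ethanol array.

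Genes that set the flux rather than catalyse a step were further apart. PFKFB4 and PFKFB3 make fructose 2,6-bisphosphate, the activator of phosphofructokinase, and rose to day 7 by 2.15 ± 0.28 and 1.68 ± 0.16, whereas TIGAR, which breaks that activator down, fell by 0.59 ± 0.14. The same 3 genes passed at day 21 (1.57, 1.48 and -0.87), where PFKFB2 also fell (-0.65). With ethanol PFKFB4 stood at -0.51 ± 0.16 and PFKFB3 at -0.41 ± 0.092. Of the 4 tested genes on the phosphofructokinase-2 list, which includes TIGAR, 0 passed. PFKFB4 was -0.30 and PFKFB3 -0.31 without the day 7 array of ethanol alone. PFKFB4 read 8.54 in undifferentiated cells, 10.96 in untreated embryoid bodies at day 7 and 9.76 with ethanol at that day.

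Among 8 tested glucose transporters other than SLC2A1, 2 rose to day 7, SLC2A13 (0.80 ± 0.15), a proton-coupled inositol carrier gene, and SLC2A14 (0.51 ± 0.11). SLC2A14 is a near-copy of SLC2A3, the neuronal glucose transporter gene, which stood at 0.47 ± 0.14 without passing, and their probes can share signal. At day 21 SLC2A12 and SLC2A13 rose and SLC2A6 fell, where 16.6% of all genes rose and 21.2% fell. None passed for ethanol, where the largest was SLC2A12 at -0.24 ± 0.13, or -0.079 without the day 7 array of ethanol alone. That omission raised the day 7 counts to 4 transporters higher and 1 lower, and those of all genes from 818 to 1535 higher and from 1702 to 2298 lower.

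The lists of pathways that lead pyruvate and glucose elsewhere had medians below 0 at day 7, when 13.9% of all genes fell. Of 9 tested pyruvate dehydrogenase genes, the subunit genes PDHA1 (-0.45 ± 0.090) and DLAT (-0.31 ± 0.089) fell to day 7, and PDK3, a second inhibitory kinase gene, rose (0.75 ± 0.19). At day 21, 2 of them rose and 4 fell, beside 16.6% and 21.2% of all genes. Of 17 tested genes on the citric acid cycle list 8 fell and 0 rose to day 7, with a list median of -0.31. Among them were SUCLG1 (-0.64 ± 0.086), IDH3A (-0.42 ± 0.11) and IDH1 (-0.42 ± 0.10). IDH1 codes for the cytosolic isocitrate dehydrogenase, which is outside the cycle itself. Of 7 pentose phosphate genes 4 fell and 0 rose, with the lactonase gene PGLS at -0.49 ± 0.089 and the transketolase gene TKT at -0.47 ± 0.10. Of 5 gluconeogenesis genes 3 fell and 0 rose, with PCK2, the mitochondrial form of the enzyme that makes phosphoenolpyruvate, at -1.36 ± 0.11 and the fructose bisphosphatase gene FBP1 at -0.61 ± 0.12. The mitochondrial pyruvate carrier genes MPC1 (-0.55 ± 0.16) and MPC2 (-0.72 ± 0.11) fell as well, 2 of 4 tested carrier genes. Without the day 7 array of ethanol alone, 10 citric acid cycle genes fell and 1 rose, and 3 carrier genes and 3 pyruvate dehydrogenase genes fell. The pentose phosphate and gluconeogenesis counts were again 4 and 3. That omission also changed the count of all genes that fell to day 7 from 1702 to 2298, and of those that rose from 818 to 1535.

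With ethanol no gene of these 5 lists passed in limma. The highest values were those of MPC1 (0.50 ± 0.093, adjusted p 0.0611), FBP1 (0.30 ± 0.067), PCK2 (0.25 ± 0.064) and IDH1 (0.24 ± 0.059). They were 0.42, 0.30, 0.19 and 0.29 without the day 7 array of ethanol alone, and IDH1 then passed in limma (adjusted p 0.0333). List medians were 0.13 for the carriers, 0.11 for gluconeogenesis, 0.074 for pentose phosphate, 0.020 for the citric acid cycle and -0.036 for pyruvate dehydrogenase genes.

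Of the hypoxia regulator genes, 9 were tested. EGLN1 and EGLN3, which code for the prolyl hydroxylases that mark hypoxia-inducible factors for degradation and are themselves targets of those factors, rose to day 7 by 1.05 ± 0.14 and 0.96 ± 0.12 and to day 21 by 1.08 ± 0.14 and 1.45 ± 0.12 (limma's adjusted p from 9.41e-05 to 0.00556). The other 7 did not pass at either time. With ethanol EGLN3 stood at -0.29 ± 0.068 and EGLN1 at -0.29 ± 0.083, and 0 of 9 passed. They were -0.23 and -0.19 without the day 7 array of ethanol alone. In that fit 3 in place of 2 of these regulator genes rose to day 7, beside 12.5% in place of 6.67% of all genes.

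**Figure D4:**
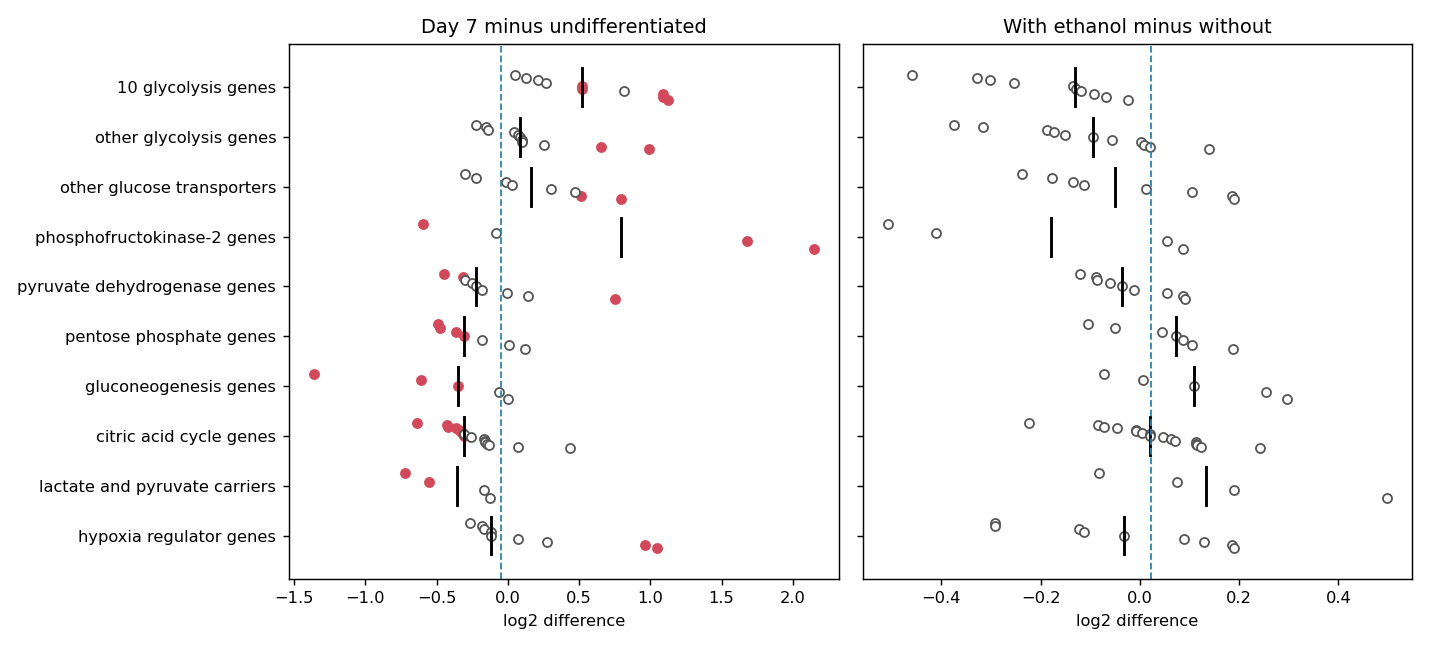
Log2 difference of each tested gene in the 10 members and 9 related lists, for day 7 minus undifferentiated cells (left) and for ethanol (right). Filled points passed the adjusted threshold, black bars are list medians, and the dashed line is the median of all 12255 genes. On the left the member median of 0.52 lies right of the line and the citric acid cycle median of -0.31 left of it, and on the right no point is filled.

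As a description of shape, the mean of the 10 member profiles was set against every other tested gene over the 9 arrays. The genes with the highest Pearson correlation were INSIG2 (r 0.989), WSB1 (0.987), MLLT10 (0.985), PFKFB4 (0.984) and PRELID2 (0.981). The arrays share conditions and include 1 undifferentiated array that stands low for all 5, so these values carry no test. INSIG2, which codes for a brake on sterol synthesis, read 8.99 in undifferentiated cells, 11.3, 10.0, 11.3 and 10.9 at day 7 and 10.8, 10.4, 10.6 and 10.1 at day 21, in the order no addition, ethanol, FA and both. Among the members themselves, the correlation with the mean of the other 9 was highest for HK2 (0.966) and PGK1 (0.959) and lowest for ALDOC (0.293) and PGAM1/PGAM4 (0.225).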

How the data were processed

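Biotinylated cDNA from Trizol-extracted RNA was hybridised, per the labels' protocols. The deposited values are log2 expression values per transcript cluster, made by the authors with RMA (which corrects background, applies quantile normalization and summarises probes) in version 1.3.1 of Affymetrix Expression Console (source: the submitters' processing notes). The log base was inferred from the values (2.49 to 14.3), and no build is stated. Quantile normalization hides a shift shared by most genes. Of 33297 clusters, 19460 had 1 symbol in the platform annotation, 1754 several and 12083 none, and 19429 of the 19460 matched RefSeq by Entrez ID. The brightest cluster represented each gene, and PGAM1 entered through a cluster with 2 symbols. Genes whose highest value exceeded 7.71, the median of all values, were tested (12255 kept, 6163 removed).

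One additive model per gene over the 9 arrays, with terms for ethanol, FA, day and the undifferentiated array, was fitted with limma 3.58.1 in R 4.3.3 (4 residual degrees of freedom, prior 3.94) and tested on simulated data. P-values were adjusted over all genes tested. Each interaction was added to the model in turn (3 residual degrees of freedom). The residual also holds any true interaction. The number of arrays limits the precision. Alternatives were other filters, cluster means, centring, array weights, arrays left out, reduced models and a term per matched pair. The members and lists were chosen with earlier results of these data known. All members are named; of each list up to 4 tested genes with the largest ethanol and largest day 7 differences are named, with isoform genes and the 5 genes of most similar profile, and other genes were chosen after their values were seen. Motifs were counted in Python 3.11.15.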

Additional observations from a re-analysis of the deposited data

How the results depend on the processing

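No paired analysis was possible by replicate number because the labels carry none. Ethanol arrays can be matched by day and FA, and with a term for each of the 4 matched pairs, chosen after seeing the data, 0 members and 126 genes passed (PDK1 adjusted p 0.0626 in limma). With ethanol the members lower numbered 0 with all arrays and 0 to 1 when 1 array was left out, beside 15 and 0 to 53 of all genes. With array weights they numbered 3 (PDK1, HK2 and PFKP), beside 291 of all genes, and the weights did not converge. All genes past the ethanol threshold numbered 54 without the filter, 963 with array weights, 0 without the day and FA terms and 0 to 212 when 1 array was left out, beside 84. For day, 3 members were lower and 3 higher, beside 2772 and 3224 of all genes. With array weights 5 were lower, beside 3584 genes, and among the arrays without ethanol alone 1 was higher (PDK1), beside 3356. When 1 array was left out, 2 to 5 were lower, beside 1964 to 3363 genes, and 1 to 3 higher, beside 2474 to 3620. From undifferentiated cells to day 7, 8 members were higher with array weights, beside 16.3% of all genes. When 1 array was left out 3 to 8 were higher, beside 1.36% to 12.5% of all genes. The genes past the threshold in either direction numbered 2520, 5304 with array weights, 4898 among the arrays without ethanol alone and 540 to 3833 when 1 array was left out. To day 21, 1 member was lower with array weights, beside 3804 of all genes, and 1 among the arrays without ethanol alone, beside 3629. When 1 array was left out 0 to 1 member was lower, beside 1922 to 3301 of all genes. The ethanol by day interaction passed for 1 gene, 0 without the filter, 0 with both interaction terms and, chosen after seeing the data, 329 without the day 7 array of ethanol alone. The differences from undifferentiated cells could not be fitted without that array.

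Signs changed in values that did not pass the threshold. Not all of these were near 0 with all arrays. Ethanol by FA was 0.35 for ALDOC and 0.15 for PFKP, and ethanol by day was 0.16 for PDK1. With array weights FA effects were -0.0091 (SLC2A1), -0.085 (HK2), -0.069 (PFKP), -0.038 (ALDOC), -0.021 (PGK1), -0.0084 (ENO1), -0.0041 (LDHA) and -0.012 (PDK1), and the LDHA day effect was -0.016. When 1 array was left out, FA effects ran from -0.010 to 0.099 (SLC2A1), -0.065 to 0.062 (HK2), -0.060 to 0.060 (PFKP), -0.050 to 0.25 (ALDOC), -0.021 to 0.053 (PGK1), -0.0064 to 0.030 (ENO1), -0.0083 to 0.086 (LDHA) and -0.011 to 0.16 (PDK1), and the LDHA day effect from -0.021 to 0.073. The LDHA day effect was -0.040 among the arrays without ethanol alone. Centring on the array median gave 0.029 for PGK1 by day, -0.029 for PGAM1/PGAM4 at day 7 and 0.0078 for its ethanol by FA interaction. Without the day 7 array of ethanol alone the ethanol by day interaction was -0.14 (HK2) and -0.088 (PDK1), and that of ethanol by FA -0.10 (SLC2A1), -0.13 (HK2), -0.0035 (PFKP), -0.034 (ALDOC), -0.037 (TPI1), -0.054 (PGK1), -0.027 (ENO1) and -0.017 (LDHA). The ethanol value of PGAM1/PGAM4 was 0.010 at day 21 alone. The cause of these changes was not tested.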
